A study of Homo sapiens with 8 samples.

Results

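The 8 genes described here are MYC, MAX, MXD1, MXD3, MXD4, MXI1, MNT and MGA, the core of the MYC and MAX transcription factor network. The 8 were chosen with earlier results of these data known and were looked up by gene symbol. All 8 were found among the 58193 genes to which transcripts could be matched and among the 16449 genes with enough reads to be tested. They were measured by RNA-seq in HT29 cells, a long-established line from a human colorectal adenocarcinoma, with 2 libraries in each of 4 groups: ICG-001 at 10 µM, CWP232228 at 1.5 µM, YB-0158 at 0.3 µM and the vehicle DMSO at 0.1%. The labels give a treatment of 48 h for 6 libraries and of 49 h for 1 ICG-001 library and 1 CWP232228 library, replicate 2 in both cases. They do not say that the replicates came from separate cultures, so each p-value rests on a spread among libraries that may be technical, and all results come from 1 cell line at 1 dose per compound. The series compares 3 related compounds, and the doses differ between them by design.

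MYC is a basic helix-loop-helix leucine zipper protein that binds E-box DNA only as a partner of MAX and, as that dimer, raises the transcription of genes for growth, ribosome production and metabolism. MXD1, MXD3, MXD4, MXI1 and MNT also pair with MAX, occupy the same E-boxes and recruit the SIN3 and histone deacetylase corepressor. They thus act against MYC. MGA is a large MAX partner that carries a T-box domain beside its helix-loop-helix domain, and it serves as the scaffold of a Polycomb complex, PRC1.6. In the colon, MYC is known as a target of Wnt and beta-catenin signalling and as a gene that is high in dividing crypt cells and in colorectal tumours, while MXD1 is known to be high in differentiating epithelium.

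The libraries held 29071547 to 58489118 estimated reads, and each member had between 495 and 11163 reads in every library. Of 10 colorectal epithelium markers, 10 were detected in all 8 libraries, with a summed level of 11500 to 13500 CPM (counts scaled to library size) in the compound libraries and of 15000 and 16600 CPM in DMSO. CDX1 was the lowest of them at 0.509 to 1.88 CPM. Of leukocytes, fibroblasts and endothelium, 10 markers summed to 5.63 to 9.68 CPM in the compound libraries and to 13.2 and 14.7 CPM in DMSO. CD68 stood at 3.32 to 8.82 CPM over the 8 libraries, COL1A1 at 1.13 to 4.26 CPM and PECAM1 at 0.79 to 1.72 CPM. CD3E and COL1A2 were at 0 in all 8, and the remaining markers reached at most 0.14 CPM. The part of other cell types in the results was not tested. Fold changes against DMSO followed the GC content of the transcripts over all genes, with a Spearman rho of -0.43 with ICG-001, -0.58 with CWP232228 and -0.38 with YB-0158, and so did the difference between the 2 replicates of a group (rho from 0.33 to 0.49 in size). The members span much of this range: mean transcript GC was 43.0% for MGA, 43.1% for MXD1, 46.1% for MXI1, 51.4% for MAX, 54.2% for MYC, 60.5% for MNT, 63.0% for MXD4 and 64.5% for MXD3. For each member, fold changes against DMSO are therefore also given after the trend with GC content and transcript length had been taken out of every library. In bulk RNA, a lower level in every cell and a level lost in some of the cells cannot be told apart.

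On the per-length TPM scale, the members in DMSO libraries ranked, from high to low, as MYC (122.0 and 105.4 TPM), MAX (49.8 and 33.4 TPM), MXD4 (35.1 and 31.0 TPM), MXD3 (20.4 and 19.7 TPM), MXI1 (16.4 and 12.7 TPM), MNT (12.8 and 8.87 TPM), MXD1 (6.30 and 4.70 TPM) and MGA (2.37 and 1.31 TPM). MAX and MXD4 overlapped in this order, as did MXI1 and MNT, and the other neighbours did not. MYC stayed first and MAX second in the mean TPM of all 4 groups, and MGA last. MXD1 and MXD3 changed their order in YB-0158 libraries, where MXD1 averaged 12.3 TPM and MXD3 averaged 9.49 TPM, while in DMSO libraries MXD1 averaged 5.50 TPM and MXD3 averaged 20.1 TPM. In ICG-001 libraries the 2 were nearly level, at means of 10.3 TPM for MXD1 and 10.4 TPM for MXD3. There MXD1 was ahead in replicate 2. MXD3 ranked 4 in DMSO, but 6 with ICG-001 and 7 with YB-0158, below MXI1 and MNT in both. Part of the reads of MYC and of MXI1 lay on transcripts outside the annotation used here: the summed reads came to 0.83 of the authors' mean for MYC and to 0.59 for MXI1, against 1.0 to 1.1 for the other 6. On the authors' FPKM scale, MXI1 in DMSO stood at 27.1 and 23.9 FPKM, which overlapped MXD3 at 22.2 and 24.4 FPKM, and it moved ahead of MXD3.

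Against DMSO, 5 of the 8 members changed with each compound at an adjusted p under 0.05, in comparisons that share the DMSO libraries. With each compound MXD1 and MGA rose, and MYC, MXD3 and MXD4 fell. MAX, MXI1 and MNT did not pass the test with any compound. Changes were common in all of these comparisons: with ICG-001, 24.8% of all tested genes were called higher and 24% lower, with CWP232228 21.6% and 21.2%, and with YB-0158 21.7% and 22.1%. Against these shares, 2 of 8 members higher and 3 of 8 lower is not far from what the whole table gave. Where the libraries of a member are said below to lie apart between groups, the share of all genes that did so was not counted. The median log2 fold change of the 8 was -0.11 with ICG-001, -0.26 with CWP232228 and -0.14 with YB-0158, against 0.03, 0.04 and 0.02 for all genes. After the correction for GC content and length, the members called were 4 with ICG-001 (MXD1 higher; MYC, MXD3 and MXD4 lower), 1 with CWP232228 (MXD4 lower) and 3 with YB-0158 (MXD1 higher; MXD3 and MXD4 lower). Under the same correction, 23.7% of all tested genes were called higher and 24.1% lower with ICG-001, 12.9% and 13.5% with CWP232228, and 22.2% and 22.5% with YB-0158, so these member counts too are near those of the whole table.

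**Figure D1:**
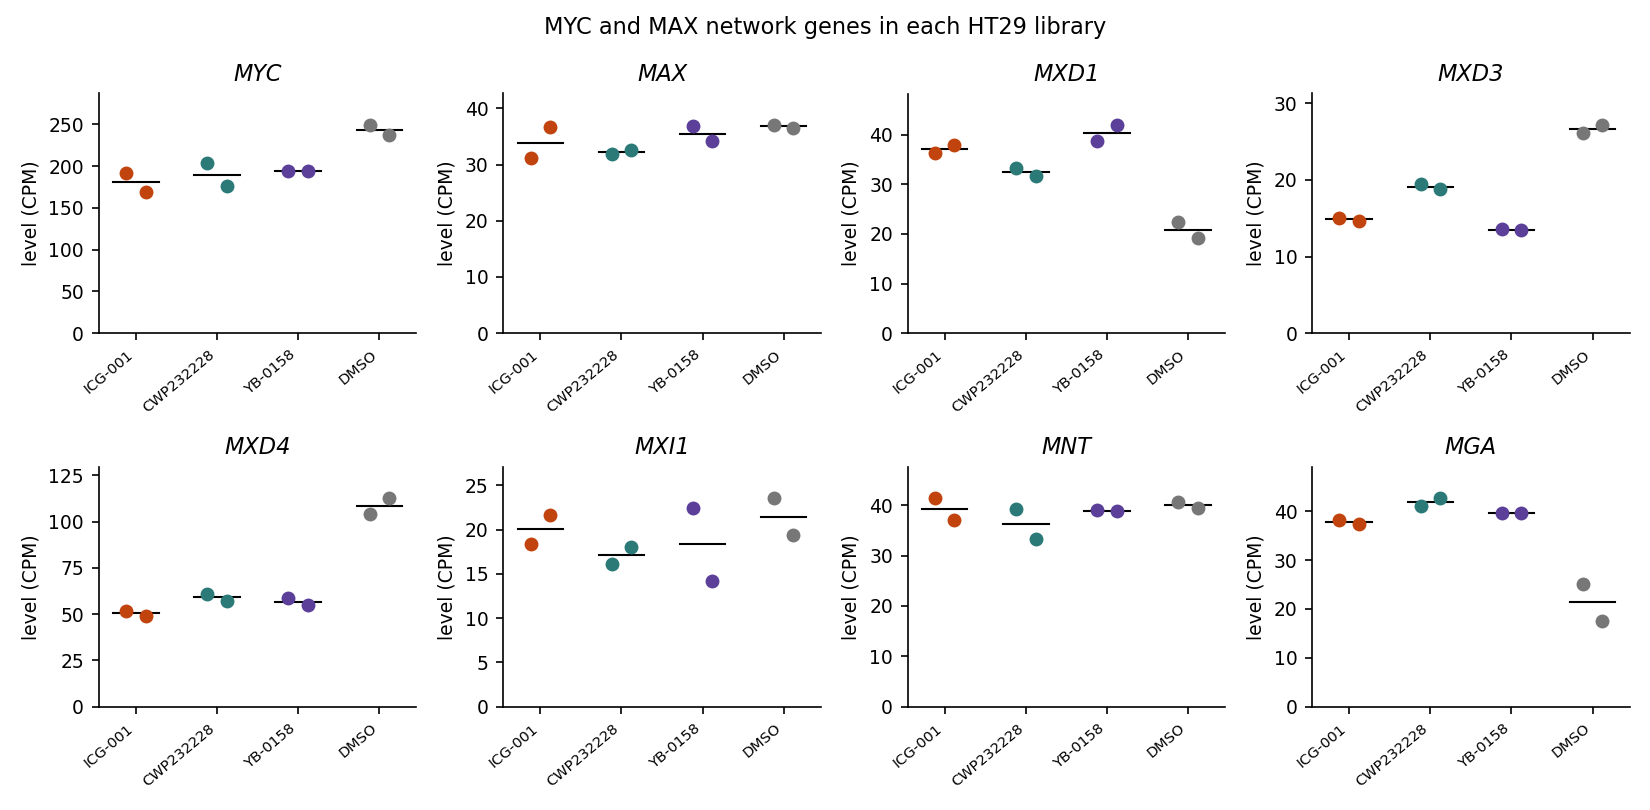
Level of each of the 8 members in CPM (vertical axes, from 0) in the 2 libraries (points) of each group, with the group mean as a bar. For MYC, MXD3 and MXD4 all 6 compound libraries lie below both DMSO libraries, for MXD1 and MGA all 6 lie above, and for MAX, MXI1 and MNT some of them overlap DMSO. The share of all genes that lie apart in this way was not counted. With each compound, 21.2% to 24.8% of all tested genes were called in each direction.

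MYC, on chromosome 8 (GRCh38, chr8:127735434-127741434, plus strand), stood at 191.7 and 169.3 CPM with ICG-001, at 203.2 and 175.8 CPM with CWP232228, at 194.3 and 194.4 CPM with YB-0158, and at 249.4 and 236.8 CPM in DMSO. All 6 compound libraries lay below both DMSO libraries. The log2 fold change was -0.43 with ICG-001 (SE 0.091, adjusted p = 0.0052), -0.36 with CWP232228 (SE 0.092, adjusted p = 0.015) and -0.32 with YB-0158 (SE 0.091, adjusted p = 0.021), a level of 0.743 to 0.8 of that in DMSO. The authors' FPKM, which hold the reads missing from these sums, gave the same order: 117.5 and 118.0 FPKM with ICG-001, 127.4 and 126.2 FPKM with CWP232228, 135.4 and 124.1 FPKM with YB-0158, and 160.8 and 177.2 FPKM in DMSO. In the authors' deposited table the log2 fold change of MYC was -0.50 with ICG-001, -0.40 with CWP232228 and -0.36 with YB-0158. The call was not held by every setting. With the GC content and length correction it was -0.26 with ICG-001 (adjusted p = 0.039), -0.17 with CWP232228 (adjusted p = 0.18) and -0.18 with YB-0158 (adjusted p = 0.13). Without replicate 2 of ICG-001 the adjusted p with that compound was 0.053, without replicate 2 of CWP232228 it was 0.13, and without either replicate of YB-0158 it was 0.1.

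MYC reads on the transcripts matched to the annotation were split between 2 main protein-coding transcripts in much the same way in every library. Reads of MYC on unmatched transcripts, described above, are not part of these shares. MYC-202 held 74.5% and 76.2% of the gene's matched reads with ICG-001, 74.8% and 73.3% with CWP232228, 73.0% and 74.7% with YB-0158, and 72.2% and 68.3% in DMSO. MYC-205 held 20.2% to 21.6% in the compound libraries and 20.5% and 25.4% in DMSO. Neither passed the test of transcript usage. The only member transcript that did was a minor one, MYC-208, chosen for mention after its values were seen. It had 0 and 0 reads with ICG-001, 0 and 124 with CWP232228, 218 and 0 with YB-0158, and 179 and 172 in DMSO, where a count of 0 allows up to 3 reads. Its call (ICG-001 against DMSO, adjusted p = 0.027) rests on reads that Salmon gave wholly or not at all, including between replicates of the same group. In transcript usage, 0.952% of 64061 transcripts were called with ICG-001, 0.89% with CWP232228 and 0.766% with YB-0158. Of 43 member transcripts tested, 1, 0 and 0 were called, while 4, 2 and 3 had an unadjusted p under 0.05.

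**Figure D2:**
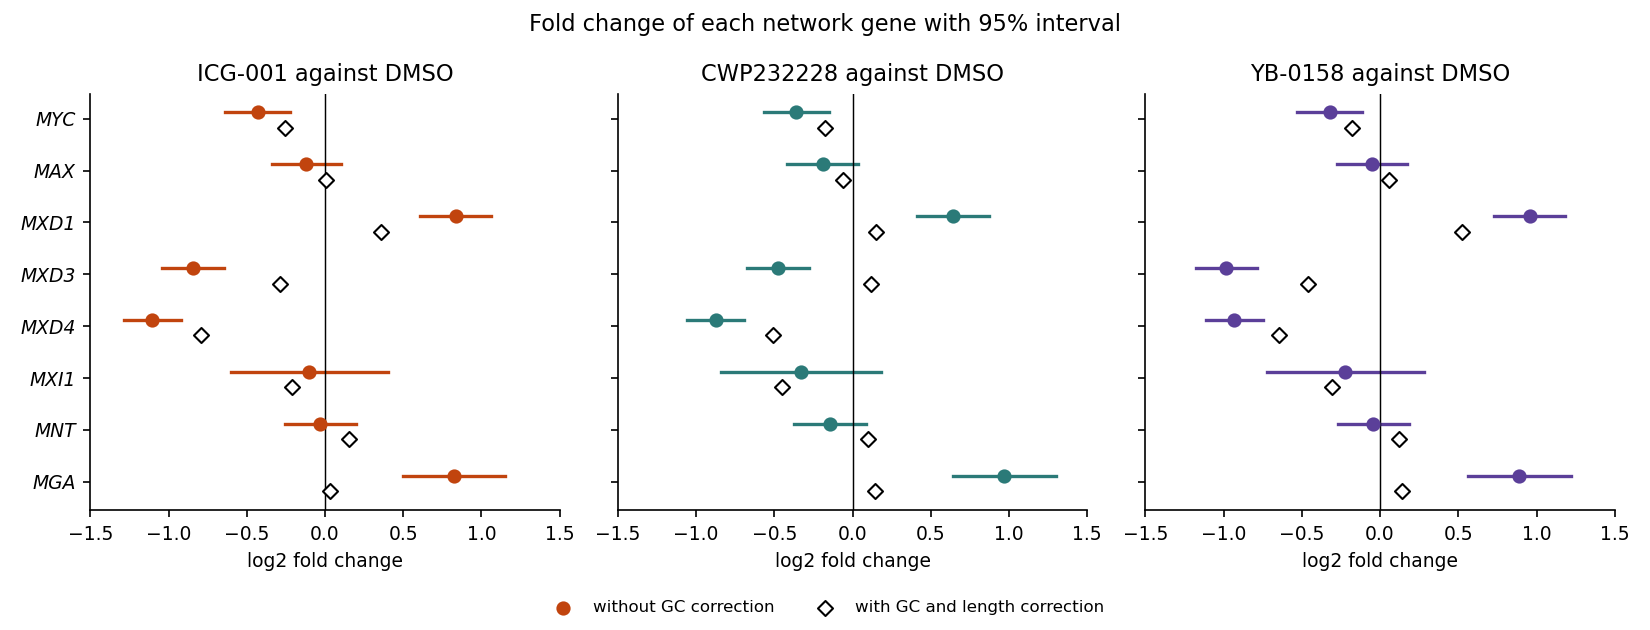
Log2 fold change (horizontal axes) of each member (rows) for each compound against DMSO, with its 95% interval (filled points and bars) and its value after correction for GC content and transcript length (open diamonds). MXD4 stays at or below -0.51 under both, while the MGA diamonds lie between 0.03 and 0.14 and the MXD3 diamond with CWP232228 lies above 0.

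MAX, the shared partner of all the others (chromosome 14, chr14:65006174-65102695, minus strand), was nearly level. It stood at 31.1 and 36.7 CPM with ICG-001, at 31.9 and 32.6 CPM with CWP232228, at 36.8 and 34.2 CPM with YB-0158, and at 37.1 and 36.5 CPM in DMSO. The libraries of ICG-001 and YB-0158 overlapped those of DMSO, and those of CWP232228 lay below them. The log2 difference was -0.12 with ICG-001 (95% interval -0.34 to 0.10, adjusted p = 0.34), -0.19 with CWP232228 (-0.42 to 0.03, adjusted p = 0.15) and -0.05 with YB-0158 (-0.27 to 0.17, adjusted p = 0.69). With the GC content and length correction it was 0.007 with ICG-001, -0.06 with CWP232228 and 0.06 with YB-0158 (adjusted p = 0.95, 0.64 and 0.61), so its sign with ICG-001 and YB-0158 depends on the correction. The per-length levels of MAX were less stable than its reads: replicate 1 of ICG-001 had 24.9 FPKM and replicate 2 had 49.5 FPKM. In the first of these libraries MAX-204 took 50.6% of the reads and MAX-205 took 0%, and in the second MAX-204 took 0% and MAX-205 took 60.1%. The ratio of MYC to MAX on the FPKM scale accordingly ran from 2.34 to 4.72 over the compound libraries and was 2.95 and 4.26 in DMSO, with no separation of the groups.

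MXD1, known as an antagonist of MYC that is induced when cells leave the cycle and differentiate, lies on chromosome 2 (chr2:69897688-69942945, plus strand). It stood at 36.3 and 37.8 CPM with ICG-001, at 33.3 and 31.6 CPM with CWP232228, at 38.6 and 42.0 CPM with YB-0158, and at 22.4 and 19.2 CPM in DMSO. All 6 compound libraries lay above both DMSO libraries. It rose by 0.84 on the log2 scale with ICG-001 (SE 0.1, adjusted p = 0.00034), by 0.64 with CWP232228 (SE 0.101, adjusted p = 0.0024) and by 0.96 with YB-0158 (SE 0.1, adjusted p = 0.00022), a level 1.56 to 1.94 times that of DMSO. With the GC content and length correction the values were 0.36 with ICG-001 (adjusted p = 0.0024), 0.15 with CWP232228 (adjusted p = 0.16) and 0.52 with YB-0158 (adjusted p = 0.00029). The rises with ICG-001 and YB-0158 thus held their call at a smaller size, and the rise with CWP232228 did not hold it.

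MXD3 and MXD4, which fell as MYC did, share the SIN3-binding, repressing role. MXD3 is known to be made in S phase and in proliferating progenitors, unlike the other MXD proteins, and MXD4 is known from differentiating and resting cells. MXD3 (chromosome 5, chr5:177301461-177312757, minus strand) stood at 15.1 and 14.6 CPM with ICG-001, at 19.5 and 18.8 CPM with CWP232228, at 13.5 and 13.4 CPM with YB-0158, and at 26.1 and 27.2 CPM in DMSO. The YB-0158 libraries were the lowest, then those of ICG-001, CWP232228 and DMSO, and no 2 groups overlapped. The log2 fold change was -0.84 with ICG-001 (SE 0.086, adjusted p = 0.00017), -0.48 with CWP232228 (SE 0.086, adjusted p = 0.004) and -0.98 with YB-0158 (SE 0.086, adjusted p = 9.8e-05). With the GC content and length correction it was -0.29 with ICG-001 (adjusted p = 0.018) and -0.46 with YB-0158 (adjusted p = 0.0018). With CWP232228 it turned to 0.12 (adjusted p = 0.33), so the direction of MXD3 with this compound depends on the correction.

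MXD4 (chromosome 4, chr4:2247432-2262294, minus strand) fell with all 3 compounds, further than MXD3 with ICG-001 and CWP232228 in the summed reads. It stood at 51.6 and 49.2 CPM with ICG-001, at 60.8 and 57.3 CPM with CWP232228, at 58.7 and 54.9 CPM with YB-0158, and at 104.1 and 112.6 CPM in DMSO. All 6 compound libraries lay below both DMSO libraries. The log2 fold change was -1.10 with ICG-001 (SE 0.08, adjusted p = 3.5e-05), -0.88 with CWP232228 (SE 0.08, adjusted p = 0.00051) and -0.93 with YB-0158 (SE 0.08, adjusted p = 8.7e-05), so that 0.465 to 0.545 of the DMSO level remained. MXD4 was the only member called with all 3 compounds under all 18 alternatives tried. After the GC content and length correction it was -0.79 with ICG-001 (adjusted p = 2.2e-06), -0.51 with CWP232228 (adjusted p = 0.00016) and -0.65 with YB-0158 (adjusted p = 7.2e-06). The authors' deposited table has it at -0.80 with ICG-001, -0.65 with CWP232228 and -0.56 with YB-0158, and there MXD3 fell further than MXD4 with ICG-001, at -0.996 and -0.80.

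Because MXD3 and MXD4 moved one way and MXD1 the other, the start regions of these 3 genes are shown, as RefSeq gives them on GRCh38.p14, from 250 bases before to 50 bases after the start, in lower case with the E-box CACGTG, the motif that MYC and MXD proteins bind with MAX, in capitals. They lie at chr4:2262060-2262359 (minus strand) for MXD4, chr5:177312703-177313002 (minus strand) for MXD3 and chr2:69914859-69915158 (plus strand) for MXD1.
MXD4: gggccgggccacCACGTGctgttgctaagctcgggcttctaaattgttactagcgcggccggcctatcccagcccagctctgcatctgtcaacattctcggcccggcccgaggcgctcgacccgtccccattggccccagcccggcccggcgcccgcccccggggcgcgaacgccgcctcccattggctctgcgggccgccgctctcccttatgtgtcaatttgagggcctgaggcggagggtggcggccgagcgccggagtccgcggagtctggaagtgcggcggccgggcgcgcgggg
MXD3: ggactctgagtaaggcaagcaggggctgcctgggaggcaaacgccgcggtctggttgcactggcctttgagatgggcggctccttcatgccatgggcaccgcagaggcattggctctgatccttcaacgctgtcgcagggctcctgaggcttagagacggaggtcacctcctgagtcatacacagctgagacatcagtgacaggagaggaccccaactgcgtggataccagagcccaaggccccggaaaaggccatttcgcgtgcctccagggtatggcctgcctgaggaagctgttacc
MXD1: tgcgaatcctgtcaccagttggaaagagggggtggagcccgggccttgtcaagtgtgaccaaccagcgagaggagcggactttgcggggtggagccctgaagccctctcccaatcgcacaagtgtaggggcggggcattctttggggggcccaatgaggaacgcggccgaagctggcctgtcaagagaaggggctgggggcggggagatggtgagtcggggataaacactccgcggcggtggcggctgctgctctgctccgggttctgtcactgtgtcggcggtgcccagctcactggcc
The motif reads the same on both strands. It stands at position -238 of the MXD4 window and is not among the letters of the MXD3 and MXD1 windows. Positions in the windows are counted from the RefSeq start. The annotated start of MXD4-201 (2262294) lies in the MXD4 window, between the E-box and the RefSeq start. The E-box is therefore nearer to that start than its position tells. MXD4-201 held 86.9% and 89.1% of the gene's reads in DMSO. The MXD3 window holds the annotated start of MXD3-208 (177312757) but not that of MXD3-203 (177312309). MXD3-203 held 45.1% and 43.8% of the gene's reads in DMSO, and the sequence around its start was not examined. Over the 12 start windows that the table holds for 7 members (none of MYC was used), 2 had it: that of MXD4 and that of MNT (chr17:2401011-2401310, minus strand, at position -193). Over all 35116 windows of 300 bases it was found in 2548 (7.3%). MXD4 fell and MNT did not pass the test, and a match of letters is not evidence of binding.

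MXI1, an antagonist close to MXD1 (chromosome 10, chr10:110207605-110287365, plus strand), had the widest spread of the 8. Its summed reads gave 18.4 and 21.6 CPM with ICG-001, 16.1 and 18.03 CPM with CWP232228, 22.5 and 14.2 CPM with YB-0158, and 23.5 and 19.4 CPM in DMSO. The replicates of YB-0158 lay on both sides of DMSO. No difference passed the test, with log2 values of -0.10 (95% interval -0.60 to 0.40), -0.33 (-0.84 to 0.18) and -0.22 (-0.73 to 0.28) for the 3 compounds in the same order. The corrected values were -0.21, -0.45 and -0.30 (adjusted p = 0.48, 0.22 and 0.33). The authors' FPKM were steadier and gave another order: 26.4 and 26.5 FPKM with ICG-001, 23.8 and 22.5 FPKM with CWP232228, 30.8 and 31.8 FPKM with YB-0158, and 27.1 and 23.9 FPKM in DMSO. Here both YB-0158 libraries lay above both DMSO libraries, and the authors' deposited table gives 0.27 with an adjusted p of 0.064. The sign for MXI1 with YB-0158 thus differs between the summed reads and the authors' values, which differ in transcripts, length scaling and tool. It also differs between the replicates: the summed reads gave -0.61 without replicate 1 of YB-0158 (adjusted p = 0.038) and 0.07 without replicate 2 (adjusted p = 0.79).

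MNT, a widely expressed antagonist that is known to hold MYC in check in resting and cycling cells alike (chromosome 17, chr17:2384060-2401118, minus strand), stayed level. It stood at 41.4 and 37.0 CPM with ICG-001, at 39.2 and 33.4 CPM with CWP232228, at 39.1 and 38.8 CPM with YB-0158, and at 40.6 and 39.5 CPM in DMSO. The ICG-001 libraries overlapped those of DMSO, and the libraries of CWP232228 and YB-0158 lay just below them. The log2 difference was -0.03 with ICG-001 (95% interval -0.26 to 0.20), -0.14 with CWP232228 (-0.37 to 0.09) and -0.04 with YB-0158 (-0.27 to 0.19), with adjusted p of 0.82, 0.28 and 0.76. The correction turned the sign with all 3 compounds, to 0.16, 0.10 and 0.12 (adjusted p = 0.067, 0.29 and 0.16).

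MGA (chromosome 15, chr15:41621224-41773081, plus strand) was the lowest member per length and one of the 2 that rose. It stood at 38.3 and 37.4 CPM with ICG-001, at 41.0 and 42.7 CPM with CWP232228, at 39.6 and 39.6 CPM with YB-0158, and at 25.1 and 17.6 CPM in DMSO. The 6 compound libraries lay close together, and the 2 DMSO libraries differed more from each other than any 2 compound libraries did. It rose by 0.83 on the log2 scale with ICG-001 (SE 0.144, adjusted p = 0.0021), by 0.97 with CWP232228 (SE 0.145, adjusted p = 0.0021) and by 0.89 with YB-0158 (SE 0.144, adjusted p = 0.0017). With the GC content and length correction it was 0.03 with ICG-001 (adjusted p = 0.65), 0.14 with CWP232228 (adjusted p = 0.086) and 0.14 with YB-0158 (adjusted p = 0.062), and no call was left. The mean transcript GC of MGA was the lowest of the 8.

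**Figure D3:**
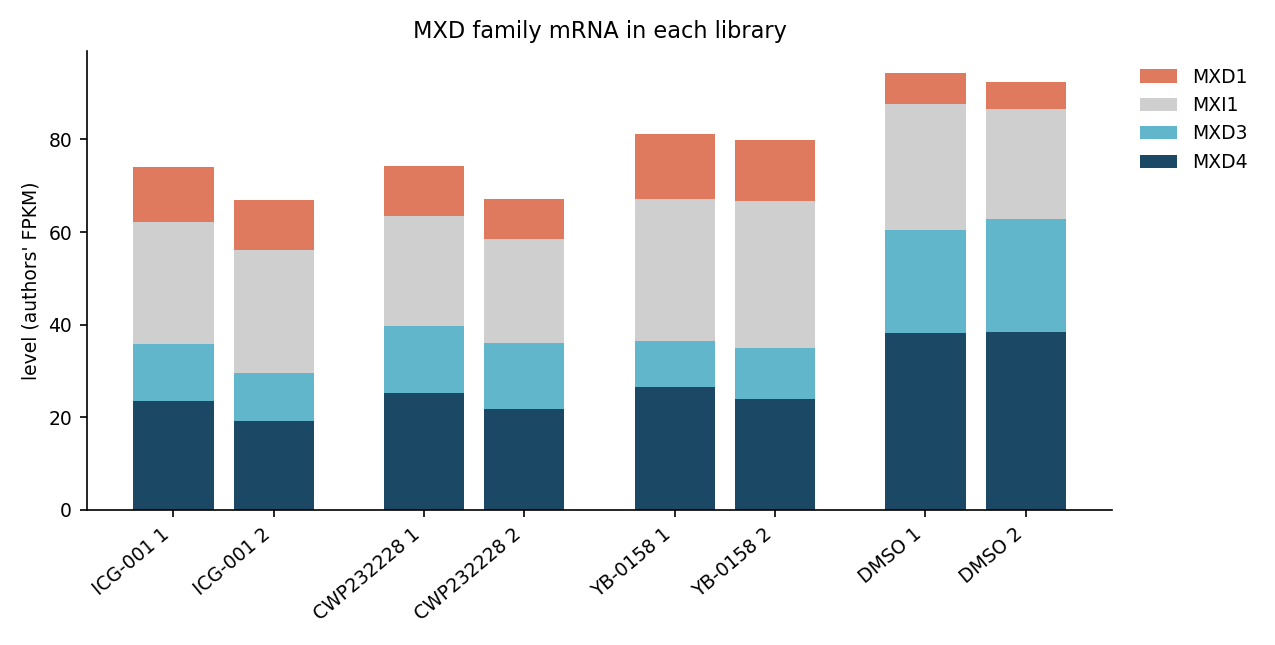
Stacked level of MXD4, MXD3, MXI1 and MXD1 in the authors' FPKM (vertical axis, from 0) in each library, with the replicate number after the group name. The MXD3 and MXD4 parts are smaller and the MXD1 part larger in the 6 compound libraries than in DMSO, and the sum of the 4 is 66.9 to 81.1 FPKM against 94.4 and 92.5 FPKM.

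The make-up of the MXD family differed between compound and DMSO libraries, and the ratio of MYC to the family did not separate them. On the authors' FPKM scale, MXD3 and MXD4 together made up 48.5% and 44.3% of the summed MXD1, MXD3, MXD4 and MXI1 level with ICG-001, 53.4% and 53.6% with CWP232228, 44.9% and 43.8% with YB-0158, and 64.0% and 67.8% in DMSO. MXD1 made up 15.9% and 16% with ICG-001, 14.6% and 12.9% with CWP232228, 17.1% and 16.5% with YB-0158, and 7.26% and 6.29% in DMSO. For both shares the compound libraries lay apart from the DMSO libraries. The ratio of MYC to the summed family was 1.59 and 1.77 with ICG-001, 1.72 and 1.88 with CWP232228, 1.67 and 1.55 with YB-0158, and 1.70 and 1.92 in DMSO, and these values overlapped. The FPKM behind these shares were not corrected for GC content.

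MXD3, MXD4 and MNT each had a transcript annotated with kept intron sequence among the transcripts that held at least 10% of the gene's reads in some group. Their shares were compared after the values had been seen. MXD3-206 keeps the whole introns 2 and 3 of the 5 introns of MXD3-203, both between coding exons. The smaller of them, intron 3 (GRCh38, chr5:177310541-177310667, minus strand, 127 bases, 70.1% GC), is shown with 15 bases of exon on each side in lower case and the intron in capitals, as it stands in MXD3-206.
MXD3 intron 3: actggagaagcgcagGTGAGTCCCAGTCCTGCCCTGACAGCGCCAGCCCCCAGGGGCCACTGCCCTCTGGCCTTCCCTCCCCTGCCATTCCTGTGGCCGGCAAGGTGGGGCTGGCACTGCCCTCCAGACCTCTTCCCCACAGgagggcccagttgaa
MXD4-203 begins inside intron 3 of MXD4-201 and keeps its last 2712 of 5459 bases, and the junction with the next exon shows the last 30 intron bases in capitals before 15 exon bases.
MXD4 intron 3 end: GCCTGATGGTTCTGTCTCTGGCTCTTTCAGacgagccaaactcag
MNT-209 lies wholly within intron 4 of MNT-201 and holds no exon of it.

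**Figure D4:**
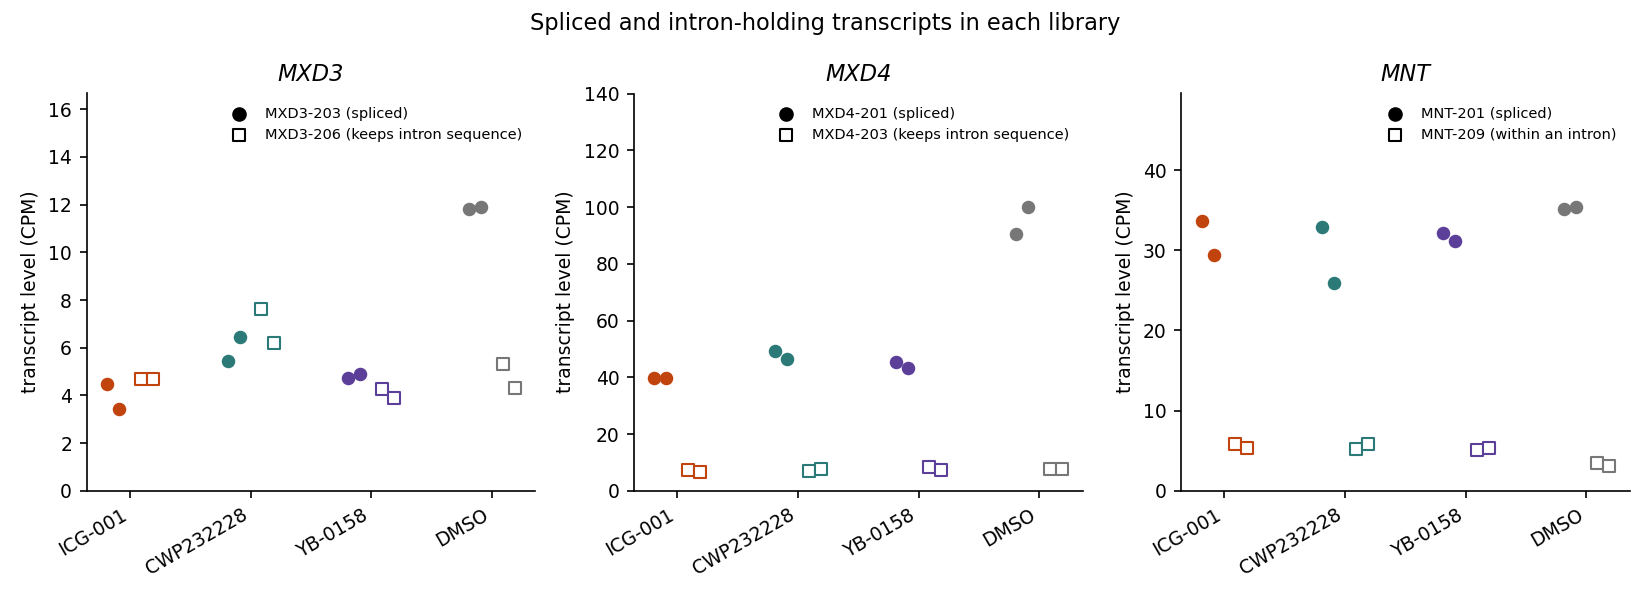
Level in CPM (vertical axes, from 0) of the main spliced transcript (filled circles) and of the transcript with intron sequence (open squares) of MXD3, MXD4 and MNT in each library. MXD4-201 is 39.7 to 49.4 CPM in compound libraries against 90.5 and 100 CPM in DMSO, while MXD4-203 is 6.52 to 8.36 CPM against 7.64 and 7.6 CPM.

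The lower reads of MXD4 lay on its main spliced transcript, while the spliced transcripts of MXD3 did not all move alike. MXD4-201 stood at 39.8 and 39.7 CPM with ICG-001, 49.4 and 46.6 CPM with CWP232228, 45.3 and 43.2 CPM with YB-0158, and 90.5 and 100 CPM in DMSO. MXD4-203 stood at 7.45 and 6.52 CPM with ICG-001, 7.07 and 7.55 CPM with CWP232228, 8.36 and 7.18 CPM with YB-0158, and 7.64 and 7.6 CPM in DMSO, so that its level overlapped between the groups while its share of the gene was higher, at 11.6% to 14.4% in compound libraries and 7.35% and 6.75% in DMSO. MXD3-203 stood at 3.44 to 6.44 CPM in compound libraries and at 11.8 and 11.9 CPM in DMSO, and MXD3-206 at 3.88 to 7.61 CPM and at 5.3 and 4.32 CPM. Of the other protein-coding transcripts of MXD3, MXD3-208 stood at 0 to 1.76 CPM in compound libraries and at 3.69 and 6.33 CPM in DMSO, MXD3-201 at 1.66 to 2.56 CPM and at 1.98 and 2.53 CPM, and MXD3-202 at 1.71 to 2.66 CPM and at 1.44 and 1.45 CPM. The share of MXD3-202 was 10.9% to 18.2% in compound libraries and 5.52% and 5.34% in DMSO, and no MXD3 transcript passed the test of transcript usage. The share of all intron-keeping transcripts of MXD3 was 33.8% and 33.0% with ICG-001, 42.3% and 35.1% with CWP232228, 34.7% and 32.5% with YB-0158, and 20.3% and 16.1% in DMSO. For MNT this share was 16% to 21.6% in compound libraries and 11.4% and 10.3% in DMSO. In these 3 genes all 6 compound libraries lay above both DMSO libraries, but this was common: of 2720 genes with a mean of at least 100 reads and a share of at least 5%, 39.8% did so and 4.04% lay below in the same way. None of the 3 intron-keeping transcripts passed the test of transcript usage with any compound (unadjusted p from 0.27 to 0.54, adjusted p = 1 in edgeR's diffSpliceDGE). Over all reads, intron-keeping transcripts took 4.81% to 5% in compound libraries and 4.43% and 4.79% in DMSO.

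Between compounds, which were given at 10, 1.5 and 0.3 µM (ICG-001, CWP232228, YB-0158), few differences were found, and each sets libraries at different doses side by side. Of all tested genes, 6.82% were called in either direction for CWP232228 against ICG-001, 0.00608% for YB-0158 against ICG-001 and 7.78% for YB-0158 against CWP232228. MXD3 was the only member called. Its mean was 19.1 CPM with CWP232228 and 14.8 CPM with ICG-001, a log2 difference of 0.37 (95% interval 0.17 to 0.56, adjusted p = 0.042). Its mean was 13.5 CPM with YB-0158 and 19.1 CPM with CWP232228, a log2 difference of -0.50 (-0.70 to -0.31, adjusted p = 0.012). The first of these calls held under 6 of the 18 alternatives and the second under 11, and neither held when a replicate of either compound compared was left out, while the sign stayed in all 18. Between YB-0158 and ICG-001, edgeR and DESeq2 both called 0 members, and 0 had an unadjusted p under 0.05 in edgeR. The log2 difference was 0.11 for MYC (95% interval -0.10 to 0.31), 0.12 for MXD1 (-0.10 to 0.34), -0.14 for MXD3 (-0.33 to 0.06), 0.17 for MXD4 (-0.01 to 0.35) and 0.07 for MGA (-0.25 to 0.38). MXD1 stood at a mean of 40.3 CPM with YB-0158 and 32.4 CPM with CWP232228, a log2 difference of 0.31 (0.09 to 0.54, adjusted p = 0.093). MXD4 stood at 59.0 CPM with CWP232228 and 50.4 CPM with ICG-001, a difference of 0.23 (0.05 to 0.41, adjusted p = 0.13). After the GC content and length correction both of these were called, MXD1 at 0.38 (adjusted p = 0.0044) and MXD4 at 0.29 (adjusted p = 0.0032), when 19.4% and 20% of all genes were called in these 2 comparisons. For MYC the differences were 0.07 for CWP232228 against ICG-001 (-0.14 to 0.28) and 0.04 for YB-0158 against CWP232228 (-0.17 to 0.25).

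Of 4 further genes of the network, 1 was called with each compound. These are MLX, MLXIP and MLXIPL, of a parallel branch that senses glucose and shares some MXD partners, and MYCL, a paralog of MYC. The called gene was MLX, the dimer partner of MXD1, MXD4 and MNT outside the MAX network, at 84.4, 89.3 and 86.4 CPM with ICG-001, CWP232228 and YB-0158 and 109.3 CPM in DMSO (log2 fold change -0.37, -0.29 and -0.34). MYCL averaged 11.4, 9.42 and 12.9 CPM in the same order and 11.3 CPM in DMSO, and MYCN did not pass the filter on low counts. After the correction 0 of the 4 were higher and 2 lower with ICG-001, 0 and 1 with CWP232228, and 1 and 1 with YB-0158. Without either replicate of CWP232228 or of YB-0158, the call of MLX with that compound was lost. Among 16 genes of the SIN3 and histone deacetylase corepressor that MXD proteins recruit, 1 was higher and 6 lower with ICG-001, 1 and 3 with CWP232228, and 0 and 6 with YB-0158. HDAC1, a catalytic subunit, averaged 254.2, 313.1 and 266.9 CPM and 394.5 CPM in DMSO. Of 11 coactivator partners of MYC, 3 were higher with each compound and 6, 5 and 6 lower, among them RUVBL2, a helicase of the TIP60 complex (-0.60, -0.57 and -0.65), the acetyltransferase KAT5 (-0.66, -0.36 and -0.48) and the acetyltransferase KAT2A (-0.55, -0.51 and -0.58). Of 10 partners of MGA in PRC1.6, 1, 2 and 0 were higher and 3, 2 and 2 lower, while MGA itself was called higher with each. Beside all of these counts stand the shares of all genes. They were 24.8% higher and 24% lower with ICG-001, 21.6% and 21.2% with CWP232228, and 21.7% and 22.1% with YB-0158. The counts of PRC1.6 genes lower are near these shares. After the GC content and length correction the counts higher and lower, for ICG-001, CWP232228 and YB-0158 in turn, were 2 and 10, 0 and 3, and 0 and 10 for the corepressor list, 1 and 7, 1 and 1, and 1 and 5 for the coactivators, and 1 and 5, 0 and 2, and 1 and 4 for PRC1.6, beside the corrected shares of all genes given above. The counts also rest on single libraries. Leaving out 1 library gave 0 to 3 corepressor genes higher and 4 to 7 lower with ICG-001, 0 to 5 and 3 to 4 with CWP232228, and 0 to 3 and 3 to 7 with YB-0158, where the highest counts of genes higher came without DMSO replicate 1 and the 3 lower with YB-0158 without its replicate 2. It gave 1 to 3 coactivators higher and 5 to 7 lower with ICG-001, 2 to 4 and 3 to 6 with CWP232228, and 1 to 3 and 3 to 7 with YB-0158, the lowest counts of genes lower with the last 2 compounds coming without their own replicate 2. For PRC1.6 the ranges were 0 to 3 and 0 to 3, 0 to 3 and 0 to 2, and 0 to 2 and 1 to 3.

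Of 12 genes for the turnover of MYC protein, 5 were higher with each compound and 3, 3 and 4 lower. Of all genes, 24.8% were higher and 24% lower with ICG-001, 21.6% and 21.2% with CWP232228, and 21.7% and 22.1% with YB-0158. AURKA, a mitotic kinase known to stabilise MYC family proteins, fell to 55.8 CPM with ICG-001, 87.0 CPM with CWP232228 and 58.3 CPM with YB-0158, against 105.5 CPM in DMSO. HUWE1, a ubiquitin ligase that acts on MYC, averaged 504.7, 507.1 and 512.6 CPM and 302.0 CPM in DMSO, and USP36, a nucleolar deubiquitinase of MYC, averaged 107.3, 89.9 and 106.5 CPM and 73.6 CPM. After the correction, 23.7% of all genes were higher and 24.1% lower with ICG-001, 12.9% and 13.5% with CWP232228, and 22.2% and 22.5% with YB-0158. The turnover counts were then 4 higher and 3 lower, 2 and 1, and 3 and 3 for the 3 compounds, not far from these shares. Without DMSO replicate 1, 8 were higher with ICG-001 and 9 with CWP232228, and with CWP232228 1 was higher without its replicate 2, 2 without its replicate 1, DMSO replicate 2 or YB-0158 replicate 1, and 3 without YB-0158 replicate 2. With YB-0158, 3 were higher without DMSO replicate 2 or either replicate of YB-0158. Of 11 regulators of the MYC promoter and mRNA, 1, 1 and 3 were higher and 3, 2 and 3 lower, with PUF60, a repressor at the MYC promoter element bound by FUBP1, at log2 fold changes of -0.64, -0.54 and -0.54. After the correction the counts for these regulators were 1 and 7, 0 and 3, and 1 and 4. Without DMSO replicate 1, 3, 4 and 5 were higher, and over all libraries left out in turn 0 to 3, 0 to 4 and 1 to 5 were higher and 2 to 4, 2 and 2 to 4 lower. Of 4 genes next to MYC at 8q24 that were tested, POU5F1B alone was called, higher, at 1.49, 0.912 and 1.36 CPM with the 3 compounds and 0.526 CPM in DMSO. Its call with CWP232228 was lost whichever of the 8 libraries was left out (adjusted p from 0.057 to 0.14). POU5F1B is a near copy of POU5F1, which makes its reads uncertain.

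Genes known to be activated by MYC were more often lower than higher. Of 57 genes of a list modelled on the second hallmark set of MYC targets, 7 were higher and 29 lower with ICG-001, 7 and 25 with CWP232228, and 5 and 27 with YB-0158, with a median log2 fold change of -0.23, -0.22 and -0.26. The corresponding shares of all genes called lower are given above. After the correction, 23.7% of all genes were higher and 24.1% lower with ICG-001, 12.9% and 13.5% with CWP232228, and 22.2% and 22.5% with YB-0158. The counts of the 57 after this GC content and length correction were 10 and 22, 4 and 8, and 10 and 23, with medians of -0.09, -0.06 and -0.07. The corrected lower count with CWP232228 is near the share of the whole table. With CWP232228, 16 were lower without replicate 1 of that compound and 12 without its replicate 2. UNG, a DNA repair glycosylase, fell to 62.4 CPM with ICG-001, 98.5 CPM with CWP232228 and 61.2 CPM with YB-0158, against 147.6 CPM in DMSO, and MCM5, a replication helicase subunit, fell to 52.1, 88.1 and 51.8 CPM, against 132.1 CPM. Of 21 classical MYC targets, 6, 5 and 5 were higher and 13, 8 and 12 lower, with medians of -0.30, -0.04 and -0.23. With CWP232228 fewer of them were lower when either replicate of that compound was left out. After the correction the counts of the 21 higher and lower were 4 and 11, 4 and 8, and 4 and 12, with medians of -0.16, -0.02 and -0.26. SHMT1, a one-carbon enzyme, had log2 fold changes of -1.12, -0.69 and -1.12, and LDHA, lactate dehydrogenase, -1.05, -0.59 and -1.07, while SLC1A5, the glutamine transporter, had 0.81, 0.40 and 0.83. Of 10 genes known to be repressed by MYC, 4, 1 and 3 were higher and 3, 4 and 3 lower: THBS1, a secreted inhibitor of angiogenesis, had 1.62, 1.06 and 1.47, and NDRG1, a gene induced by stress and low oxygen, had -2.61, -2.39 and -2.70. After the correction, 6, 4 and 6 of these 10 were higher and 4, 2 and 2 lower, and their median was 0.35, 0.19 and 0.31, against 0.01, -0.04 and 0.03 without it.

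**Figure D5:**
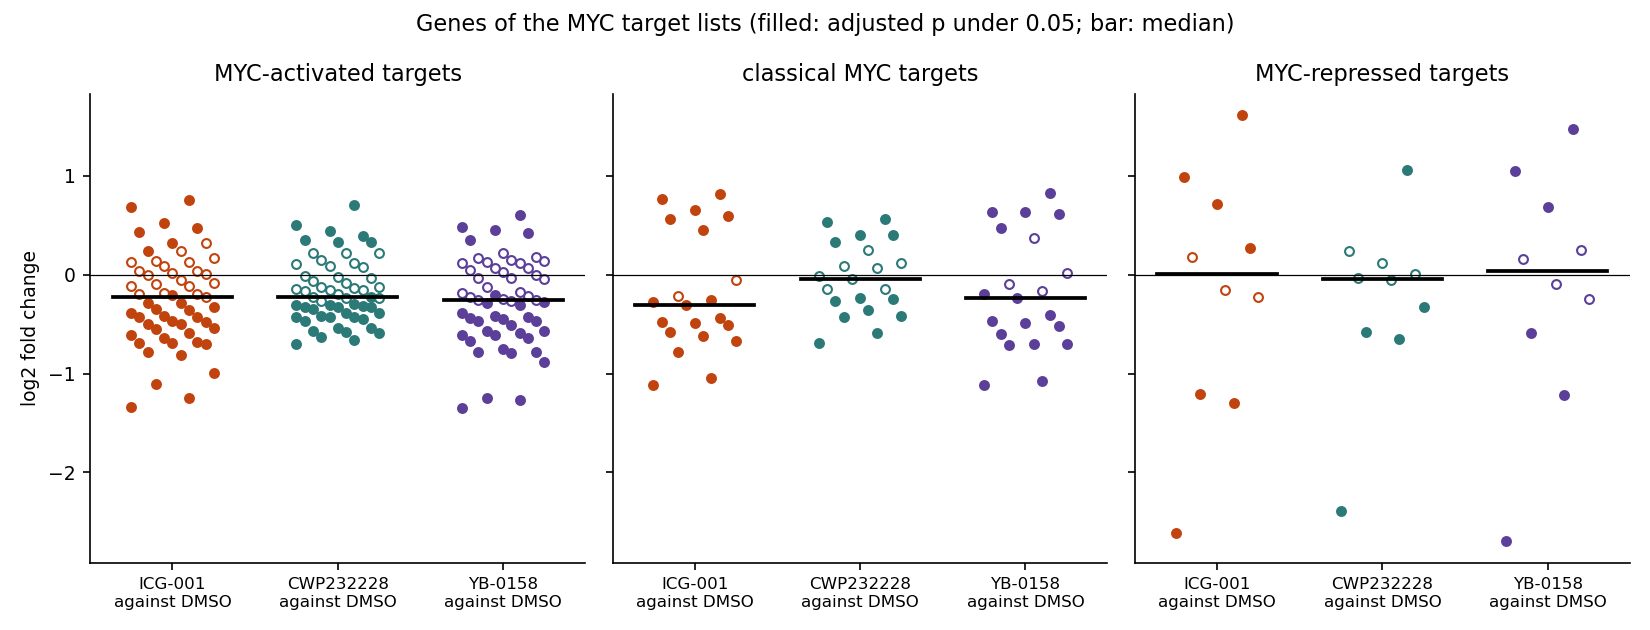
Log2 fold change (vertical axis) of each tested gene (points, filled where the adjusted p is under 0.05) of 3 lists of MYC targets for each compound against DMSO, with the list median as a bar. The MYC-activated list has medians of -0.23, -0.22 and -0.26, and the repressed list spreads on both sides of 0.

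The 5 genes whose pattern over the 8 libraries was most like that of MYC, among 10936 candidates, were RFX1, PLEKHM1, BRF1, CHMP7 and SLC39A1. Likeness was the root mean square difference of log2 CPM, each gene centred on its own mean, and it was 0.0286 for RFX1 and 0.0445 for SLC39A1. RFX1 stood at 16.45 and 14.02 CPM with ICG-001, 16.4 and 14.7 CPM with CWP232228, 16.7 and 16.1 CPM with YB-0158, and 20.7 and 20.2 CPM in DMSO.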

How the data were processed

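The tools listed in the submitters' processing notes are fastp, DESeq2 and Salmon 1.3.0, and the build listed is GRCh38. Per the file headers, each deposited library file gives estimated counts and TPM per transcript from Salmon. The authors' 3 deposited tables give, per gene, a mean signal in normalized counts, a log2 fold change, p-values and FPKM per library. Which transcriptome release and filters the authors used is not given in the sources used here.

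Transcript counts were matched by transcript identifier to GENCODE 29 (204677 of 228754, 89.5%), summed per gene and rounded. Unmatched transcripts held 1.54% to 1.85% of a library's reads. Reads that fit several genes were divided by Salmon's model, so LDHA, which has processed pseudogenes, and POU5F1B are uncertain. Genes were tested under R 4.3.3 with edgeR 4.0.16 (TMM, filterByExpr, robust quasi-likelihood test) with all 8 libraries in 1 model of 4 groups and 4 residual degrees of freedom. P-values were adjusted by Benjamini-Hochberg over all 16449 genes, and a call is an adjusted p under 0.05. SE and 95% intervals come from this fit, and CPM values are scaled by it. Transcript usage was tested with diffSpliceDGE. Alternatives used DESeq2 1.42.0, limma 3.58.1, other scalings and filters, a length offset, a lowess correction for GC content and length, and each library left out. Counting floors cover counting error only. The log2 difference between replicates over all genes had an SD of 0.477 for ICG-001, 0.489 for CWP232228, 0.46 for YB-0158 and 0.602 for DMSO, while the fit shares 1 spread per gene across groups.

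The members and gene lists were chosen with earlier results of these data known. All 8 members are named in every comparison. From each other list the rule takes the 3 genes with the smallest p in a joint test of the 3 compounds, of which some are given in the text, and it adds the 5 genes most like MYC whose mean log2 CPM (prior count 2) was at least 2, and member transcripts with at least 10% of their gene. The labels do not say whether replicate numbers pair the libraries. The correlation of replicate differences between groups ran from -0.08 to 0.18, which does not decide it.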

Additional observations from a re-analysis of the deposited data

How the results depend on the processing

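Of 432 values of a member against DMSO under an alternative, 414 kept their direction and their side of the threshold or were uncalled both times, 15 lost their call, 1 gained one and 2 reversed. The 2 were MXD3 with CWP232228, at 0.12 with the GC content and length correction and 0.12 with that correction and the replicate block. The same correction and its combination with the block reversed 2 other named genes: RING1, to 0.17 and 0.17 with ICG-001, 0.063 and 0.063 with CWP232228, and 0.27 and 0.27 with YB-0158, and TFDP2 with CWP232228, to -0.38 and -0.38.

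Of 8 members, 5 were called against DMSO with each compound. Under the GC content and length correction the count was 1 with CWP232228 and 3 with YB-0158, and with the replicate block added it was 1 with CWP232228. For CWP232228 against ICG-001, where 1 member was called, it was 0 without the low-count filter, with the transcript length offset, with the replicate block, with DESeq2 and with limma on the authors' FPKM (pseudocounts 0.5 and 0.1, chosen after seeing the data), and 2 with the GC content and length correction, with or without the block, and with only the 2 groups compared. For YB-0158 against CWP232228, where 1 was called, it was 2 without the low-count filter, with the GC content and length correction, with or without the block, and with only the 2 groups compared, and 0 with the length offset and with limma. The count of member transcripts was 1, and 0 with the replicate block. Leaving out 1 replicate gave 0 to 2 for CWP232228 against ICG-001, for YB-0158 against CWP232228 and for member transcripts. Whether replicate numbers pair the libraries is not stated in the labels. Beside the GC content and length correction, the block turned MYC with YB-0158 to a call (adjusted p = 0.046, against 0.13 with the correction alone), so that 4 members were called there. Against DMSO the block changed no other call of a member, with or without the correction. Without the correction it removed the call of MXD3 for CWP232228 against ICG-001.

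Over all genes, calls moved by over 1.5 times as follows. For CWP232228 against DMSO, 7042 became 2747 to 4341 under 8 alternatives. Without replicate 2 of ICG-001, 8025 became 5140, and without replicate 1 or 2 of YB-0158, 7209 became 4436 or 4237. For CWP232228 against ICG-001, 1121 became 41 to 3289, for YB-0158 against ICG-001 1 became 0 to 268, and for YB-0158 against CWP232228 1279 became 88 to 3306. A lone library left in a group was taken to vary like the others. With 2 libraries per group, the calls of MYC are among those lost when 1 library is left out, at adjusted p between 0.053 and 0.13.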
